A study of Mus musculus with 8 samples.

Results

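Epithelial and mesenchymal state was followed through 10 genes chosen by name: Cdh1, Cdh2, Epcam, Esrp1, Esrp2, Grhl2, Zeb1, Zeb2, Snai1 and Vim. All 10 symbols were found among the 24354 genes of the FPKM table, and all 10 passed the filter on low values. FPKM is the number of fragments per kilobase of transcript and per fixed number of mapped fragments, so levels of different genes can be set side by side. Poly-A RNA of 8 mouse libraries was sequenced, 2 each of embryonic stem cells (ESCs), neural stem cells (NSCs), extended pluripotent stem cells (EPSCs) and EPSC-NSC hybrid cells.

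The ESCs were the established line E14, labelled wild type and grown with serum and LIF. The NSCs were heterozygous for the OG2 reporter (GFP driven by the Oct4 distal enhancer) and for ROSA26 lacZ, and grew without feeders on gelatin with N2, EGF and FGF2. The EPSCs were a C57BL/6 line from 8-cell embryos, labelled wild type, numbered 1 and marked p15 in its label, in N2B27 medium to which CHIR99021, minocycline hydrochloride, dimethindene maleate and human LIF were added. The hybrid cells, line 2-2 marked p10, arose from polyethylene glycol fusion of EPSCs with the reporter NSCs, were picked as Oct4-GFP+ cells, were described as tetraploid and grew in the EPSC medium. ESCs, EPSCs and hybrid cells shared a layer of inactivated C3H mouse embryonic fibroblasts. Each group was a single line, so p-values measure the spread between repeated libraries and not between lines. The medium and feeder layer differed between NSCs and the other groups together with the cell type, the reporter alleles of NSCs were absent from the wild-type ESCs and EPSCs but entered the hybrid cells by fusion, the line and medium differed between ESCs and EPSCs, and their effects cannot be told apart. Between hybrid cells and EPSCs the ploidy, the line, the Oct4-GFP selection and the p mark differed together with the fusion, and these cannot be told apart either. The sample names do not say whether EPSC line 1 was the fusion partner of line 2-2, so EPSCs stand below for the parental cell type.

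Epithelial cells hold together through E-cadherin (Cdh1) and Epcam, while mesenchymal and neural progenitor cells use N-cadherin (Cdh2) and are rich in the intermediate filament protein vimentin (Vim). Zeb1, Zeb2 and Snai1 are zinc finger repressors that bind E-box sequences and silence Cdh1 and other epithelial genes, whereas Grhl2 activates epithelial genes and Esrp1 and Esrp2 set epithelial splicing patterns. Naive pluripotent cells carry E-cadherin on their surface, and its gain is an early step when fibroblasts are reprogrammed.

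The depth derived from the steps between low FPKM values was 22.1 to 32.6 in units of 1000000 fragments per library, at an assumed fragment length of 200 nucleotides. At these depths 3 fragments on a transcript of 2000 nucleotides correspond to 0.051 to 0.0755 FPKM, which covers counting error only. The labelled identities were checked against marker genes. The 10 pluripotency markers summed to 4845 to 5861 FPKM in ESC, EPSC and hybrid libraries and to at most 0.6 FPKM in NSCs, while 12 neural stem cell markers summed to 4496 to 4549 FPKM in NSCs and to 17.9 to 40.5 FPKM elsewhere. Neuron markers (6 genes) summed to 151.3 to 216.7 FPKM over all libraries, trophoblast markers (7 genes) to 0.647 to 13.8 FPKM and extraembryonic endoderm markers (8 genes) to 3.28 to 8.75 FPKM. The neuron sum came mostly from Map2 in NSCs (173 and 191 FPKM) and mostly from Stmn2 and Tubb3 in the other libraries.

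All 10 genes differed between EPSCs and NSCs (limma on log2(FPKM + 1), adjusted p under 0.05), against 86.2% of the 13239 genes tested. Cdh1, Epcam, Esrp1, Esrp2, Grhl2 and Snai1 were higher in EPSCs, 6 genes against a background of 45.2%, and Cdh2, Zeb1, Zeb2 and Vim were lower in EPSCs, 4 genes against 41.0%. The same directions were found for hybrid cells against NSCs, where 10 genes were called against 86.5% of all genes (6 higher against 44.5% and 4 lower against 42.0%), and for ESCs against NSCs, where 10 were called against 84.7% (6 higher against 42.8% and 4 lower against 41.9%). These 3 comparisons share the NSC libraries. With a fold change of more than 2 added, 10, 9 and 10 genes were called, against 46.9%, 47.2% and 44.6% of all genes, and Vim in hybrid cells was the exception.

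**Figure D1:**
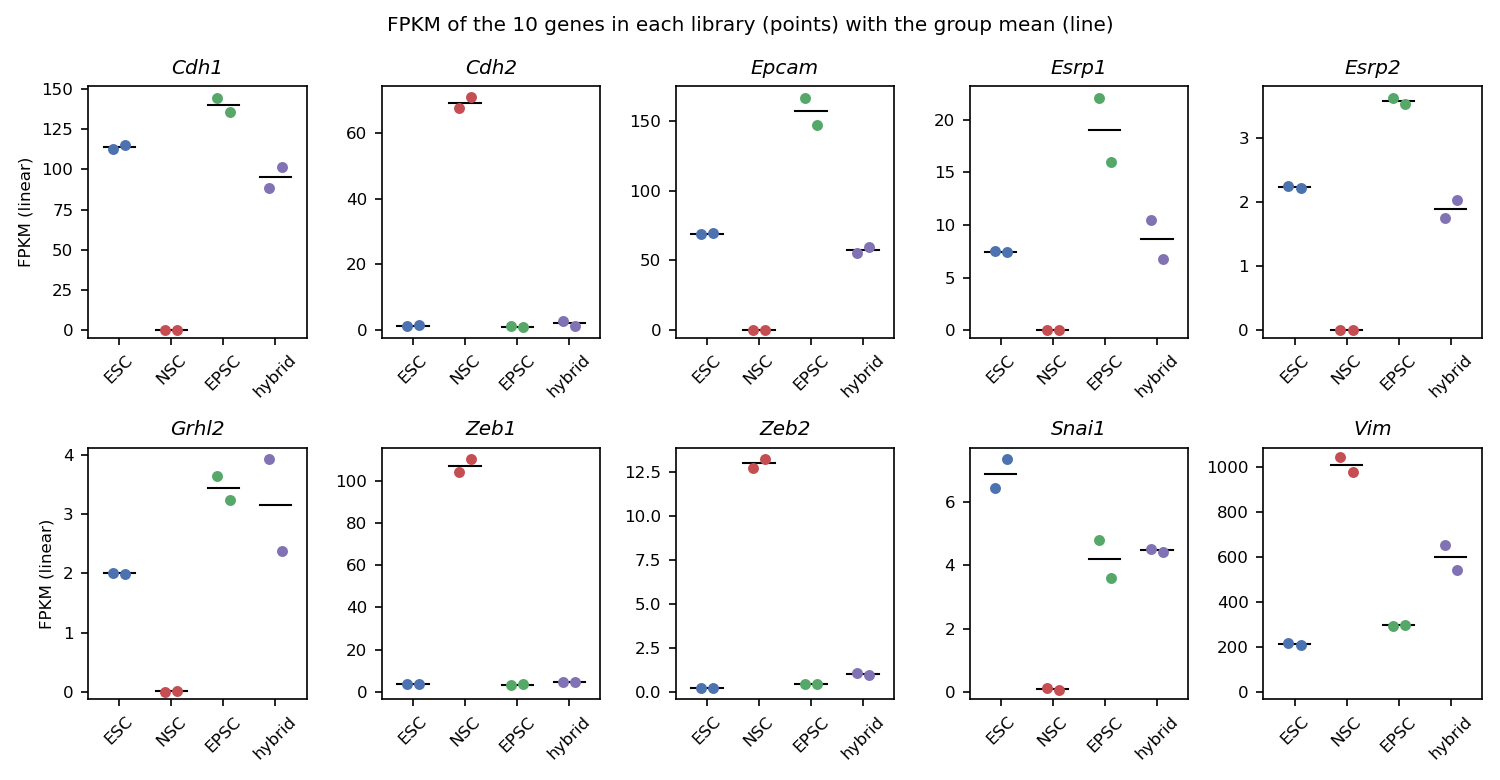
FPKM (linear axis from 0) of each of the 10 genes in the 2 libraries of each group, with a line at the group mean; each panel has its own scale. The NSC libraries lie apart from the other groups in every panel, near 0 for Cdh1, Epcam, Esrp1, Esrp2, Grhl2 and Snai1 and at the top for Cdh2, Zeb1, Zeb2 and Vim, with Vim in hybrid cells between 544 and 655 FPKM.

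Cdh1 encodes E-cadherin, the calcium-dependent adhesion protein of epithelial junctions (chr8:106603350-106670247, GRCm38). Cdh1 stood at 113 and 115 FPKM in ESCs, 145 and 136 FPKM in EPSCs and 88.5 and 102 FPKM in hybrid cells, and was listed at 0 in both NSC libraries. In NSCs, 3 fragments would have given about 0.0248 and 0.0246 FPKM. The 3 pluripotent groups did not overlap, with EPSCs highest and hybrid cells lowest. Hybrid cells were below EPSCs by 0.56 on the log2 scale (-0.56 ± 0.07 SE, limma, adjusted p = 0.00135), a ratio of means of 0.678. The higher level in EPSCs than in ESCs was smaller (0.30 ± 0.07, limma, adjusted p = 0.0104). This call was lost without ESC replicate 1 (0.28), without ESC replicate 2 (0.31), without EPSC replicate 1 (0.25) and under quantile normalization (0.13). Hybrid cells were also below ESCs (-0.26 ± 0.07, limma, adjusted p = 0.0162), a call lost without ESC replicate 1 (-0.28), ESC replicate 2 (-0.25) or hybrid replicate 1 (-0.16). Among genes above 0, Cdh1 ranked at percentile 96.1 in EPSCs, 95.7 in ESCs and 94.1 in hybrid cells.

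Cdh2 encodes N-cadherin, the cadherin of neural progenitors (chr18:16588877-16809246). It stood at 67.5 and 70.7 FPKM in NSCs, against 1.31 and 1.55 FPKM in ESCs, 1.41 and 0.879 FPKM in EPSCs and 2.76 and 1.42 FPKM in hybrid cells. NSCs were far above the others, and the pluripotent groups lay close together with ESCs overlapping both EPSCs and hybrid cells. Mean Cdh2 was 33.0-fold lower in hybrid cells than in NSCs (-4.54 ± 0.21, limma, adjusted p = 3.98e-07) and 60.4-fold lower in EPSCs than in NSCs (-5.04 ± 0.21, limma, adjusted p = 2.28e-07). Hybrid cells and EPSCs differed by 0.50 (95% interval 0.02 to 0.99, limma, adjusted p = 0.0869), which did not pass the threshold. The hybrid libraries differed 1.94-fold, and without hybrid replicate 2 the difference was 0.82 and passed. Hybrid cells against ESCs gave 0.31 (-0.17 to 0.80, limma, adjusted p = 0.22), which became -0.003 without hybrid replicate 1 and 0.63, then past the threshold, without hybrid replicate 2. EPSCs against ESCs gave -0.19 (-0.68 to 0.30, limma, adjusted p = 0.459).

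The log2 ratio of Cdh1 to Cdh2, each with 1 FPKM added, summarises the exchange of cadherins within a library. It was 5.62 and 5.51 in ESCs, -6.10 and -6.16 in NSCs, 5.92 and 6.19 in EPSCs and 4.57 and 5.41 in hybrid cells. NSCs alone were on the N-cadherin side, and the hybrid libraries were the lowest of the pluripotent ones. The mean fell short of the EPSC mean by 1.06 (4.99 ± 0.59 against 6.05 ± 0.19, SD, n = 2 each, exact permutation test, two-sided p = 0.33, the smallest that 2 libraries against 2 allow). The same p of 0.33 was reached in all 6 comparisons of groups, so this test cannot pass 0.05.

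Epcam encodes an epithelial adhesion molecule that is also a common surface marker of pluripotent cells (chr17:87635979-87651127). It stood at 166 and 147 FPKM in EPSCs, 68.9 and 69.6 FPKM in ESCs and 55.3 and 59.9 FPKM in hybrid cells. In NSCs it was 0.0564 FPKM in replicate 1 and listed at 0 in replicate 2, both under the level of 3 fragments (0.0571 and 0.0566 FPKM). EPSCs were well above the other pluripotent groups, with no overlap anywhere. Mean Epcam was 2.72-fold lower in hybrid cells than in EPSCs (-1.43 ± 0.08, limma, adjusted p = 8.35e-05), the widest gap between these groups among the 10 genes. EPSCs exceeded ESCs 2.26-fold (1.16 ± 0.08, limma, adjusted p = 2.63e-05). Hybrid cells lay slightly below ESCs (-0.26 ± 0.08, limma, adjusted p = 0.0184), a call lost without ESC replicate 1 (-0.27), without ESC replicate 2 (-0.26), without hybrid replicate 1 (-0.21) and with a pseudocount of 0.1 (-0.27).

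Because Zeb1, Zeb2 and Snai1 bind the E-box form CACCTG, the promoter windows of members in the RefSeq-based table (GRCm38.p6, 250 bases before to 50 bases after the start) were searched for these letters on both strands. Of the members, 4 had entries: Vim, Zeb2 (4 windows), Snai1 and Epcam. CACCTG occurred in 20.2% of 32851 windows of the same length and at least 2 times in 2.88%. The Epcam window, chr17:87635729-87636028 on the plus strand, held 2 matches, with first bases at positions -187 and -19 from the start, the latter on the opposite strand. The window is shown because Epcam had the widest gap between EPSCs and hybrid cells, and capitals mark the matches, read as CAGGTG where the match is on the opposite strand.
Epcam: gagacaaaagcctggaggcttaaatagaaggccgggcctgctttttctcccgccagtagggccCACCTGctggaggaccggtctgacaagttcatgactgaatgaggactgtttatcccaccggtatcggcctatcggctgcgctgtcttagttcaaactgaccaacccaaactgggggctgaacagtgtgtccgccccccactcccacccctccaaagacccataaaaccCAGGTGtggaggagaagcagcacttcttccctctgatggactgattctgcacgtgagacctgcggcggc
No match was present in the windows of Vim and Zeb2, which says only that these letters are not in those windows. The palindrome AACCGGTT, a form of the site bound by Grhl factors, occurred in 0.146% of all windows and in none of the searched windows of members. A match describes the sequence and was not measured as binding.

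Esrp1 and Esrp2 encode RNA-binding proteins that direct epithelial exon choice in genes such as the FGF receptors (chr4:11331933-11386783 and chr8:106130319-106137193). Esrp1 stood at 22.1 and 16.0 FPKM in EPSCs, 7.55 and 7.41 FPKM in ESCs and 10.5 and 6.81 FPKM in hybrid cells, and was listed at 0 in both NSC libraries, where 3 fragments would give 0.0287 and 0.0284 FPKM. EPSCs were above the other pluripotent groups, whose libraries overlapped. Mean Esrp1 was 2.2-fold lower in hybrid cells than in EPSCs (-1.06 ± 0.20, limma, adjusted p = 0.00504) and 2.54-fold higher in EPSCs than in ESCs (1.22 ± 0.20, limma, adjusted p = 0.00145). Hybrid cells and ESCs differed by 0.16 (-0.31 to 0.63, limma, adjusted p = 0.512), which became -0.12 without hybrid replicate 1. The hybrid libraries differed 1.54-fold.

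The study measured Esrp1 by quantitative RT-PCR in EPSCs and ESCs, and the genes it names for hybrid cells do not include Esrp1. Its Esrp1 primers are shown because they tell which Esrp1 transcripts that assay could see. All letters are part of the primers, so none is set in capitals.
Esrp1 forward primer: caagctgggttcggatgagaa
Esrp1 reverse primer: aggttttcggcgtctattttagt
Both primers matched 5 of 7 Esrp1 transcripts of GENCODE M21, the forward one in exon 1 (chr4:11386354-11386374) and the reverse one in exon 2 (chr4:11385684-11385706), with a product of 162 nucleotides. The FPKM values describe the whole gene and do not separate transcripts.

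Esrp2, the paralog of Esrp1, stood at 3.62 and 3.52 FPKM in EPSCs, 2.24 and 2.22 FPKM in ESCs and 1.75 and 2.03 FPKM in hybrid cells, and was listed at 0 in both NSC libraries (3 fragments, 0.0315 and 0.0312 FPKM). The 3 pluripotent groups did not overlap, with hybrid cells lowest. Hybrid cells were 1.89-fold below EPSCs (-0.66 ± 0.08, limma, adjusted p = 7.94e-04), and EPSCs were 1.60-fold above ESCs (0.50 ± 0.08, limma, adjusted p = 0.00104). Hybrid cells against ESCs gave -0.16 (-0.34 to 0.02, limma, adjusted p = 0.0974), which did not pass but passed without hybrid replicate 2 (-0.23) and under quantile normalization (-0.22). The ratio of Esrp1 to Esrp2 was 3.36 and 3.34 in ESCs, 6.09 and 4.53 in EPSCs and 5.98 and 3.36 in hybrid cells, so that Esrp1 was the more abundant of the pair in each library where both were present.

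Grhl2 encodes a grainyhead-like transcription factor that maintains Cdh1, Epcam and Esrp genes in epithelia (chr15:37232821-37363569). It stood at 3.64 and 3.23 FPKM in EPSCs, 2.01 and 1.99 FPKM in ESCs and 3.92 and 2.38 FPKM in hybrid cells. In NSCs it was listed at 0 in replicate 1 and stood at 0.0219 FPKM in replicate 2, where 3 fragments give about 0.0219 FPKM. The EPSC libraries lay between the hybrid libraries, which differed 1.65-fold. Hybrid cells against EPSCs gave -0.12 (-0.50 to 0.26, limma, adjusted p = 0.586), which became -0.39 and passed without hybrid replicate 1 and became 0.15 without hybrid replicate 2. The excess of EPSCs over ESCs (0.56 ± 0.16, limma, adjusted p = 0.0189) was not called without ESC replicate 1 (0.57), ESC replicate 2 (0.56) or EPSC replicate 1 (0.50). The excess of hybrid cells over ESCs (0.44 ± 0.16, limma, adjusted p = 0.0436) was called in 4 of 16 alternatives. It was not called without ESC replicate 1 (0.45), ESC replicate 2 (0.44) or hybrid replicate 1 (0.17), or in fits without any single NSC or EPSC library (0.44), which share the estimate of spread.

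Zeb1 encodes a repressor of Cdh1 known from cancer and development (chr18:5591327-5775468). It stood at 104 and 110 FPKM in NSCs, against 3.83 and 3.68 FPKM in ESCs, 3.03 and 3.86 FPKM in EPSCs and 4.57 and 4.56 FPKM in hybrid cells. The pluripotent groups were all low, with the hybrid libraries just above the others and EPSCs overlapping ESCs. Mean Zeb1 was 23.5-fold lower in hybrid cells than in NSCs (-4.28 ± 0.10, limma, adjusted p = 1.35e-08). Hybrid cells were 1.33-fold above EPSCs (0.33 ± 0.10, limma, adjusted p = 0.0289), a difference called in 8 of 16 alternatives. The call was lost when the 2 groups were fitted alone (0.33), without EPSC replicate 1 (0.20), without hybrid replicate 1 (0.33) or 2 (0.33), and without any single ESC or NSC library (0.33), which share the estimate of spread. EPSCs against ESCs gave -0.10 (-0.33 to 0.12, limma, adjusted p = 0.382), which became 0.03 without EPSC replicate 1 and -0.24, then past the threshold, without EPSC replicate 2. Hybrid cells against ESCs gave 0.23 ± 0.10 (limma, adjusted p = 0.075), which passed without EPSC replicate 1 or 2 (0.23).

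Zeb2, the paralog of Zeb1 with roles in neural and neural crest cells (chr2:44983512-45117442), stood at 12.8 and 13.3 FPKM in NSCs. It was 0.238 and 0.217 FPKM in ESCs, 0.429 and 0.435 FPKM in EPSCs and 1.07 and 0.939 FPKM in hybrid cells. No groups overlapped, and the order was NSCs, hybrid cells, EPSCs and ESCs. Hybrid cells were 2.32-fold above EPSCs in mean FPKM (0.48 ± 0.07, limma, adjusted p = 0.00214) and 13.0-fold below NSCs (-2.81 ± 0.07, limma, adjusted p = 2.37e-08). The added FPKM of 1 compresses so low a gene, and with 0.1 added the first difference was 1.05. EPSCs were 1.90-fold above ESCs (0.22 ± 0.07, limma, adjusted p = 0.031), a call lost without ESC replicate 1 (0.24), ESC replicate 2 (0.21), EPSC replicate 1 (0.23) or EPSC replicate 2 (0.22). Zeb1 exceeded Zeb2 in every library, by 8.15 and 8.32 times in NSCs, 16.1 and 17.0 times in ESCs, 7.06 and 8.86 times in EPSCs and 4.28 and 4.85 times in hybrid cells.

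Snai1 encodes a repressor of the same E-box class, used at gastrulation (chr2:167538195-167542814), and its pattern was opposite to that of Zeb1 and Zeb2. It stood at 6.42 and 7.35 FPKM in ESCs, 4.80 and 3.59 FPKM in EPSCs, 4.50 and 4.43 FPKM in hybrid cells and 0.126 and 0.0503 FPKM in NSCs. The first NSC value is above and the second below the level of 3 fragments (0.0739 and 0.0733 FPKM). ESCs were highest, NSCs lowest, and the hybrid libraries lay within the EPSC range. Hybrid cells exceeded NSCs by 2.33 ± 0.12 (limma, adjusted p = 8.82e-07) and EPSCs exceeded NSCs by 2.25 ± 0.12 (limma, adjusted p = 1.08e-06). EPSCs were below ESCs (-0.61 ± 0.12, limma, adjusted p = 0.00414), a ratio of means of 0.609. Hybrid cells were below ESCs as well (-0.53 ± 0.12, limma, adjusted p = 0.00718), a call lost without ESC replicate 2 (-0.44). Hybrid cells against EPSCs gave 0.08 (-0.21 to 0.37, limma, adjusted p = 0.624), which became -0.09 without EPSC replicate 2. The Snai1 window, chr2:167537945-167538244 on the plus strand, held 1 match to CACCTG with its first base at position -126, and is shown because Snai1 is itself a factor of this class.
Snai1: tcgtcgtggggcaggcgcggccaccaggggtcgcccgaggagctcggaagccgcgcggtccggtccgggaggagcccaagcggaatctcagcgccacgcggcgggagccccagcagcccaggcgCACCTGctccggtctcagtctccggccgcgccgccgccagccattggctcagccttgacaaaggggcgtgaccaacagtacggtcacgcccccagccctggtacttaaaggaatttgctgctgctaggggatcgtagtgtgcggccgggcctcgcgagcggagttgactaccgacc
The capitals mark that match.

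Vim (chr2:13574311-13582826) was the most abundant of the 10 genes in every library. It stood at 1045 and 976 FPKM in NSCs, 655 and 544 FPKM in hybrid cells, 292 and 299 FPKM in EPSCs and 218 and 208 FPKM in ESCs. No groups overlapped, and hybrid cells held a middle place between the parental lines. Mean Vim was 2.03-fold higher in hybrid cells than in EPSCs (1.01 ± 0.09, limma, adjusted p = 3.24e-04) and 1.69-fold lower than in NSCs (-0.76 ± 0.09, limma, adjusted p = 9.33e-05). The latter difference depended on the scaling, and was -1.38 with each library scaled to the same FPKM sum and -2.18 under quantile normalization. EPSCs exceeded ESCs 1.39-fold (0.47 ± 0.09, limma, adjusted p = 0.00294), and hybrid cells exceeded ESCs 2.82-fold (1.49 ± 0.09, limma, adjusted p = 1.23e-05). The ratio of Vim to Cdh1 was 1.93 and 1.80 in ESCs, 2.02 and 2.2 in EPSCs and 7.41 and 5.35 in hybrid cells.

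Markers of fibroblasts, the cell type of the feeder layer, moved with Vim, Zeb1 and Zeb2 between EPSCs and hybrid cells. The summed FPKM of 12 fibroblast markers was 12.9 and 14.4 in ESCs, 90.9 and 87.8 in EPSCs and 343 and 257 in hybrid cells. All 12 were called higher in hybrid cells than in EPSCs, against 22.5% of all genes tested, and 11 of them by more than 2-fold, against 2.21% (limma, adjusted p under 0.05). They moved between ESCs and the other groups as well, with 11 of 12 higher in EPSCs than in ESCs (against 33.7% of all genes, median difference 2.03 against 0.04) and 12 of 12 higher in hybrid cells than in ESCs (against 35.3%, median 3.58 against 0.04). One of the 12, Postn, is also among the genes that the study follows as specific to EPSCs. The other 11, a sum added after seeing the data, came to 12.5 and 13.8 FPKM in ESCs, 79.4 and 77.3 FPKM in EPSCs and 301.7 and 225.4 FPKM in hybrid cells. Col1a1, the main fibrillar collagen chain, stood at 13.7 and 15.7 FPKM in EPSCs and at 61.0 and 46.2 FPKM in hybrid cells. The part of these markers in the higher Vim, Zeb1 and Zeb2 and in the lower Cdh1, Epcam, Esrp1 and Esrp2 of hybrid cells was not tested, nor was their part in the higher Vim and Zeb2 of EPSCs and hybrid cells against ESCs. The 10 pluripotency markers summed to 5206 and 4845 FPKM in EPSCs and to 5602 and 5058 FPKM in hybrid cells. The summed markers of extraembryonic endoderm and trophoblast were lower in hybrid cells than in EPSCs. The 8 endoderm markers summed to 8.70 and 7.81 FPKM in EPSCs and 3.95 and 4.33 FPKM in hybrid cells, with 3 of 4 tested called lower, against 21.9% of all genes (limma, adjusted p under 0.05, median -0.75). The 7 trophoblast markers summed to 10.02 and 13.77 FPKM in EPSCs and 5.95 and 8.06 FPKM in hybrid cells. Of 3 tested, 1, Krt7, was called lower, against 21.9% of all genes. Krt7 stood at 4.90 and 6.72 FPKM in EPSCs and 1.12 and 2.26 FPKM in hybrid cells, which made most of the lower sum. Krt7 is also counted among the filament genes. The part of either list in the lower epithelial genes was not tested. In these bulk libraries, fewer cells of a type and less RNA per cell cannot be told apart. Within hybrid cells, replicate 1 had the higher marker sum and also the higher Vim, Zeb2, Cdh2, Esrp1 and Grhl2, replicate 2 had the higher Cdh1, Epcam and Esrp2, and Zeb1 and Snai1 were almost equal in both. In NSCs, which had no feeders, the same markers summed to 8.25 and 8.19 FPKM, mostly from Pdgfra and Fbn1. There Col1a2 and Lum were listed at 0 in both libraries and Col3a1, Dcn and Postn were at most 0.0237 FPKM, while Vim, Zeb1, Zeb2 and Cdh2 were at their highest.

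**Figure D2:**
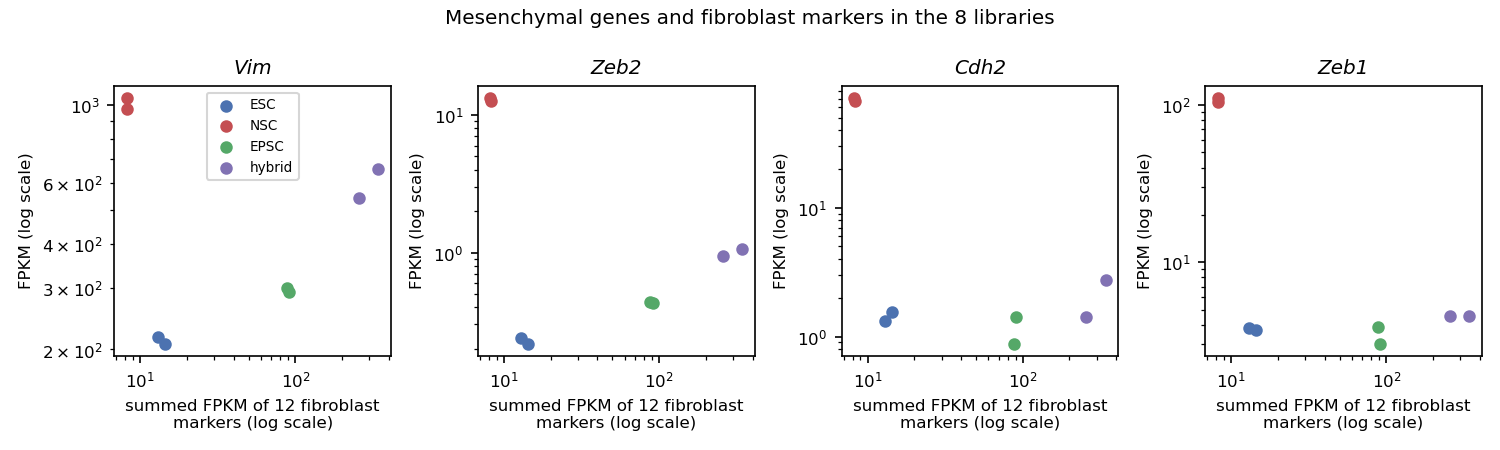
FPKM of Vim, Zeb2, Cdh2 and Zeb1 against the summed FPKM of 12 fibroblast markers in the 8 libraries, both axes on a log scale, coloured by group. NSCs hold the highest gene levels at the lowest marker sums (8.19 to 8.25), while hybrid cells have the highest sums (257 and 343) and more Vim and Zeb2 than ESCs or EPSCs.

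Hybrid cells were compared with EPSCs to ask how close the fused cells were to the pluripotent parental cell type. Cdh1, Epcam, Esrp1 and Esrp2 were lower and Zeb1, Zeb2 and Vim were higher in hybrid cells, while Cdh2, Grhl2 and Snai1 were not called. These 7 calls of 10 stand against 44.4% of all genes tested, with 4 lower against 21.9% and 3 higher against 22.5%. Epcam, Esrp1 and Vim also passed a 2-fold change on the log2(FPKM + 1) scale, 3 of 10 against 3.56% of all genes (2 lower against 1.35% and 1 higher against 2.21%), and Zeb2, with its 2.32-fold change in mean FPKM, did not pass on that scale. By the rule in the methods of the study, which asked here for a ratio of group means over 3 with the larger mean above 3 FPKM, 0 of 10 genes passed, against 2.18% of the genes above that level. With both thresholds at 2, which the study states beside its gene counts, Epcam, Esrp1 and Vim passed, 3 of 10 against 7.24%. Over all genes 759 passed with both at 2 and 211 with both at 3. The study's own count for this comparison is near the latter. The libraries of these groups did not overlap for 8 of the 10 genes, the exceptions being Grhl2 and Snai1, a share near the 68.1% of all genes tested.

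**Figure D3:**
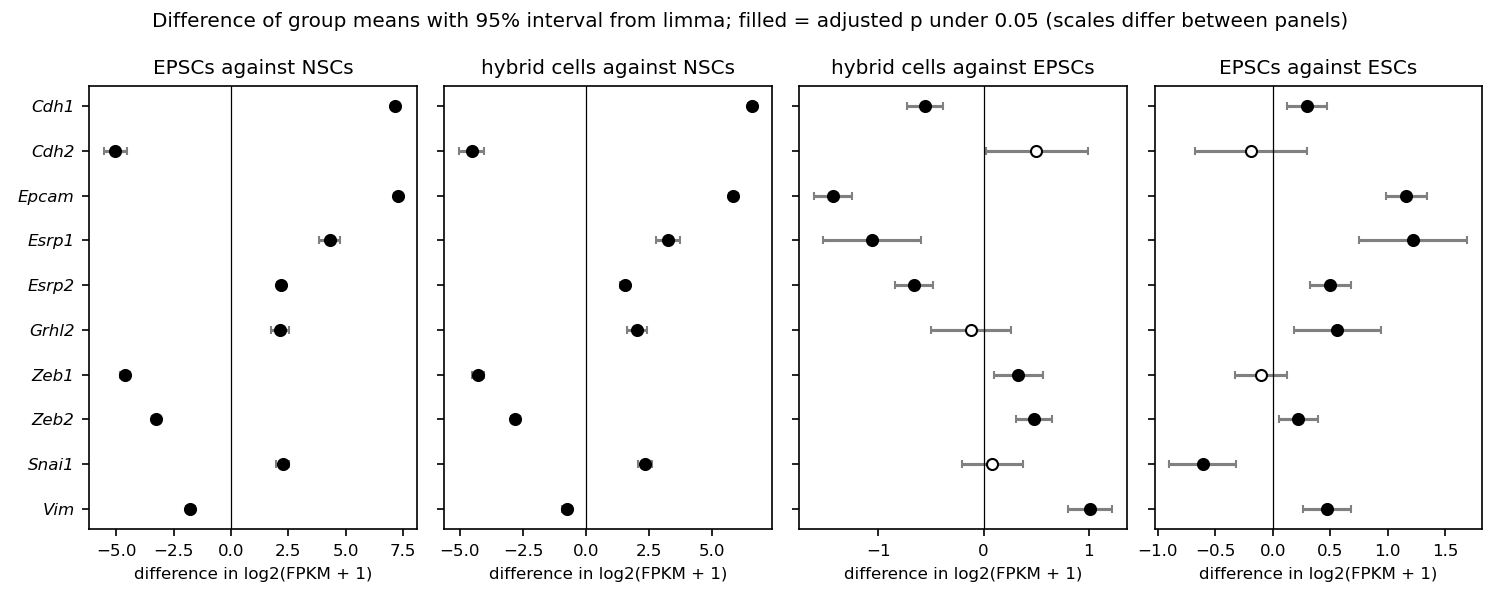
Difference of group means in log2(FPKM + 1) with its 95% interval from limma for the 10 genes in 4 comparisons, filled where the adjusted p is under 0.05; the scale differs between panels. Against NSCs no interval includes 0, with that of Vim in hybrid cells (-0.97 to -0.55) the nearest to it, and between hybrid cells and EPSCs the differences run from -1.43 (Epcam) to 1.01 (Vim).

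EPSCs were compared with ESCs as the reference pluripotent line, a comparison that shares the EPSC libraries with the one above. Cdh1, Epcam, Esrp1, Esrp2, Grhl2, Zeb2 and Vim were higher and Snai1 was lower in EPSCs, 8 of 10 genes against 61.0% of all genes tested (7 higher against 33.7% and 1 lower against 27.3%). The fibroblast markers were higher in EPSCs too, with sums of 12.9 and 14.4 FPKM in ESCs and 90.9 and 87.8 FPKM in EPSCs. With a 2-fold change added, Epcam and Esrp1 remained, 2 of 10 against 9.9%. Between hybrid cells and ESCs, Grhl2, Zeb2 and Vim were higher and Cdh1, Epcam and Snai1 lower, 6 of 10 against 65.5% (3 higher against 35.3% and 3 lower against 30.2%), and Vim alone passed 2-fold, 1 of 10 against 13.6%. Of the extraembryonic endoderm markers, 3 of 4 tested were lower in hybrid cells than in ESCs, against 30.2% (median -0.79 against 0.04). The part of these markers in the lower Cdh1 and Epcam was not tested. The count of 8 fell to 5 without ESC replicate 1, ESC replicate 2 or EPSC replicate 1, and the count of 6 fell to 3, 2 and 3 without ESC replicate 1, ESC replicate 2 or hybrid replicate 1. By the rule in the methods, 0 of 10 passed in either comparison, against 6.34% and 8.83%, and with both thresholds at 2 the numbers were 2 (Epcam and Esrp1) against 16.2% and 1 (Vim) against 20.1%, while 10, 8 and 8 passed for EPSCs, hybrid cells and ESCs against NSCs, with backgrounds of 34.4%, 34.6% and 33.0%.

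The level of each gene in hybrid cells was placed on a scale of log2(FPKM + 1) where the NSC mean is 0 and the EPSC mean is 1. Vim lay lowest with the deposited scaling, at 0.428. It was nearer to NSCs than to EPSCs with the deposited scaling, but lay at 0.578 with each library scaled to the same FPKM sum, at 0.707 under quantile normalization and at 0.504 without hybrid replicate 1, so its side of the midpoint depended on the scaling and on 1 library. The splicing factors followed, with Esrp2 at 0.697 and Esrp1 at 0.753, and Epcam lay at 0.803 and Zeb2 at 0.853. This order depended on the added FPKM and on the scaling. With 0.1 added Zeb2 (0.773) lay below Esrp2 (0.829), Esrp1 (0.849) and Epcam (0.86), and under quantile normalization Esrp2 (0.675) lay below Vim (0.707). Cdh2 (0.900), Cdh1 (0.922), Zeb1 (0.928) and Grhl2 (0.944) were close to EPSCs, and Snai1 lay just past them at 1.04. Without EPSC replicate 2 Snai1 lay short of EPSCs, at 0.965. Grhl2 lay at 0.816 without hybrid replicate 1 and at 1.07 without hybrid replicate 2. The median of the 10 genes was 0.876, against 0.967 for all 6225 genes whose parental means differed by over 1 (quartiles 0.831 and 1.08), and with 1 FPKM added Vim, Esrp2, Esrp1 and Epcam were below the lower quartile. This is a description with no test. The lowest position of Vim over the alternatives was 0.352, without hybrid replicate 2.

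**Figure D4:**
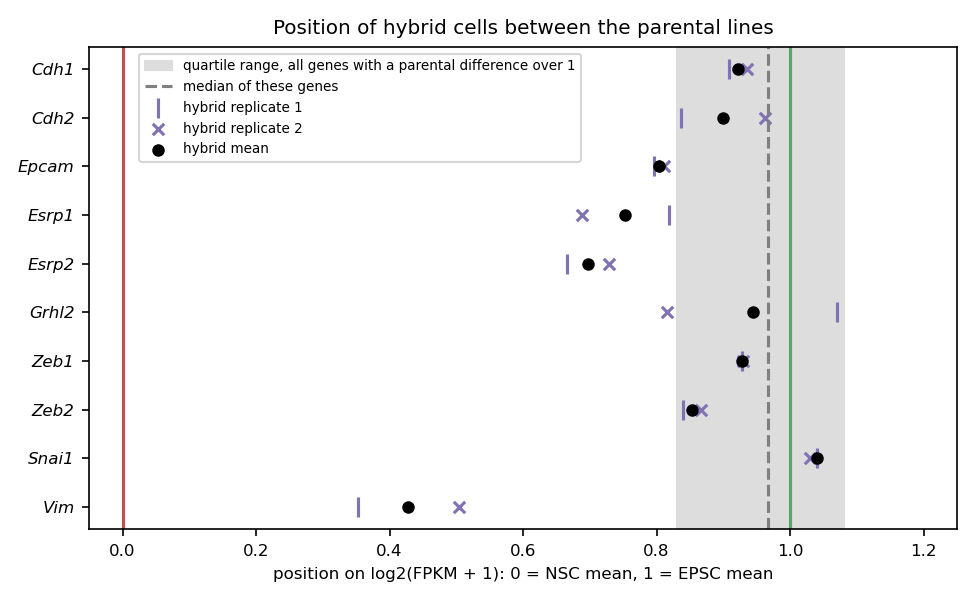
Position of hybrid cells between the NSC mean (0) and the EPSC mean (1) on log2(FPKM + 1) for the 10 genes; dots are means, bars and crosses the hybrid replicates, and grey the quartile range of all 6225 genes with a parental difference over 1. Vim lies at 0.428, with its hybrid replicates at 0.352 and 0.504, and the other genes lie between 0.697 and 1.04.

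The surrounding genes were taken from lists of epithelial and mesenchymal components. Of 30 genes of epithelial junctions and the epithelial surface, 27 were tested and 27 were higher in EPSCs than in NSCs (limma, adjusted p under 0.05), against 45.2% of all genes, with a median difference of 2.60 against 0.08. Between hybrid cells and EPSCs, 15 were lower, against 21.9% of all genes, and 2 higher, against 22.5%, with a median of -0.60 against 0.00, and 6 were lower by more than 2-fold, against 1.35%. All 12 fibroblast markers were higher in the same comparison, 3 of 4 tested endoderm markers were lower, and the part of either in the lower junction genes was not tested. Between EPSCs and ESCs, 14 were higher and 3 lower, against 33.7% and 27.3%, with a median of 0.37 against 0.04. Cldn4, a tight junction claudin, stood at 108 and 94.5 FPKM in EPSCs and 20.4 and 25.6 FPKM in hybrid cells (-2.10 ± 0.11, limma, adjusted p = 8.04e-05) and was listed at 0 in NSCs. Prss8, a membrane serine protease of epithelia, stood at 4.95 and 4.49 FPKM in EPSCs and 0.932 and 1.62 FPKM in hybrid cells (-1.35 ± 0.14, limma, adjusted p = 5.28e-04). The protease inhibitor Spint2 was lower as well, at 112 and 113 FPKM in EPSCs and 88.2 and 83.5 FPKM in hybrid cells (-0.39 ± 0.08, limma, adjusted p = 0.00791). The related inhibitor Spint1 did not pass the test, at 32.2 and 41.6 FPKM in EPSCs and 37.5 and 53.4 FPKM in hybrid cells (0.28 ± 0.17, limma, adjusted p = 0.219).

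Of 9 other epithelial transcription factors, 7 were tested and all 7 were higher in EPSCs than in NSCs, against 45.2% of all genes, while 1 was higher and 2 were lower in hybrid cells than in EPSCs, against 22.5% and 21.9% (median -0.12 against 0.00). Klf4 stood at 132 and 135 FPKM in EPSCs, 76.3 and 99.7 FPKM in hybrid cells and 1.80 and 2.41 FPKM in NSCs (hybrid cells against EPSCs -0.60 ± 0.13, limma, adjusted p = 0.00981). Elf3, an ETS factor of epithelia, was lower too (-0.51 ± 0.15, limma, adjusted p = 0.0281). Klf5 and Tfap2c, at 5.70 ± 0.10 and 5.25 ± 0.17 above NSCs in EPSCs, are factors of early embryo and epithelium alike, and they stood 5.69 ± 0.10 and 5.12 ± 0.17 above NSCs in hybrid cells.

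Of 12 other transcription factors linked to the epithelial-to-mesenchymal transition, 10 were tested and 5 were higher and 4 lower in EPSCs than in NSCs, against 45.2% and 41.0% of all genes. Between hybrid cells and EPSCs, 4 of the 10 were higher, against 22.5%, and 2 lower, a share at the background of 21.9% (median 0.11 against 0.00). Twist2, a factor of mesenchyme, stood at 1.52 and 1.30 FPKM in EPSCs and 5.63 and 4.21 FPKM in hybrid cells (1.29 ± 0.12, limma, adjusted p = 3.57e-04), and was listed at 0 in both NSC libraries. Prrx1 stood at 1.92 and 1.96 FPKM in EPSCs, 6.97 and 5.43 FPKM in hybrid cells and 6.36 and 7.70 FPKM in NSCs (1.28 ± 0.13 for hybrid cells against EPSCs, limma, adjusted p = 4.88e-04). Both are expressed by fibroblasts, and the part of the higher fibroblast markers in them was not tested. Sox9, a factor of glial progenitors, and Tcf4 were lower in EPSCs than in NSCs by 4.50 and 3.21 on the log2 scale (-4.50 ± 0.13 and -3.21 ± 0.10), and Klf8 was higher by 3.80 ± 0.16.

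Among 12 other cadherins, 8 were tested, and 6 were lower and 2 higher in EPSCs than in NSCs, against 41.0% and 45.2% of all genes. Cdh13 and Cdh20 were low where Cdh2 was low, and dropped from 85.6 and 80.1 FPKM in NSCs to 0.152 and 0.104 FPKM in EPSCs for Cdh13, and from 44.5 and 46.3 FPKM to 0.0513 and 0.0247 FPKM for Cdh20. In hybrid cells these stood at 0.219 and 0.274 FPKM (Cdh13) and 0.212 and 0.162 FPKM (Cdh20). Between hybrid cells and EPSCs 3 cadherins were higher and 0 lower at an adjusted p under 0.05 by limma, against 22.5% and 21.9%, with a median of 0.17 against 0.00. Cdh4, a neural cadherin, stood at 36.7 and 40.1 FPKM in NSCs, 4.01 and 3.66 FPKM in hybrid cells and 0.807 and 0.600 FPKM in EPSCs (hybrid cells against EPSCs 1.51 ± 0.10, limma, adjusted p = 1.14e-04). Cdh11, a cadherin of mesenchyme, stood at 8.57 and 5.85 FPKM in hybrid cells, 2.15 and 1.84 FPKM in EPSCs and 1.01 and 1.14 FPKM in NSCs (1.44 ± 0.16, limma, adjusted p = 6.35e-04). Cdh11 was thus higher in hybrid cells than in both parental lines (1.96 ± 0.16 above NSCs, limma, adjusted p = 8.35e-06), as were the fibroblast markers Col1a1 and Dcn.

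Of 5 catenins, the partners that tie cadherins to actin, 3 were tested. Ctnnb1, which encodes beta-catenin, stood at 340 and 332 FPKM in NSCs, 260 and 244 FPKM in EPSCs and 304 and 283 FPKM in hybrid cells. Ctnna1 was 191 and 191 FPKM in EPSCs, 155 and 161 FPKM in hybrid cells and 68.0 and 69.2 FPKM in NSCs. Ctnnd2, a delta-catenin of neural cells, was 42.0 and 40.9 FPKM in NSCs and at most 0.895 FPKM in the other libraries. Between hybrid cells and EPSCs 1 catenin was higher and 1 lower, against 22.5% and 21.9% of all genes, with a median of 0.20 against 0.00.

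Vim was also set beside 11 other intermediate filament genes, of which 10 were tested. The keratins of simple epithelia went the other way between EPSCs and hybrid cells. Krt8 stood at 21.9 and 18.9 FPKM in EPSCs, 5.55 and 5.44 FPKM in hybrid cells and at most 0.0218 FPKM in NSCs (hybrid cells against EPSCs -1.72 ± 0.09, limma, adjusted p = 8.24e-05). Krt7 stood at 4.90 and 6.72 FPKM in EPSCs and 1.12 and 2.26 FPKM in hybrid cells (-1.36 ± 0.20, limma, adjusted p = 0.00212). Of the 10 tested, 6 were lower and 1 higher in hybrid cells, against 21.9% and 22.5% of all genes, with a median of -0.64 against 0.00. All 12 fibroblast markers were higher and 3 of 4 tested endoderm markers lower in the same comparison, and their part in the lower keratins was not tested. The neural progenitor and glial filament genes Nes and Gfap were low in hybrid cells, unlike Vim. Nes stood at 114 and 120 FPKM in NSCs, 4.63 and 4.30 FPKM in EPSCs and 2.41 and 2.38 FPKM in hybrid cells, and Gfap at 29.2 and 24.8 FPKM in NSCs and at most 0.0175 FPKM in hybrid cells. The neuronal filament genes Ina, Nefl and Nefm were lower in NSCs than in EPSCs (limma, adjusted p = 0.00233, 5.24e-07 and 0.0169). Ina stood at 1.5 and 1.54 FPKM in NSCs, 13.6 and 5.29 FPKM in EPSCs and 7.54 and 3.66 FPKM in hybrid cells, with hybrid cells between the parental means and overlapping EPSCs. Nefl stood at 0.428 and 0.232 FPKM in NSCs, 23.8 and 16.9 FPKM in EPSCs and 19.5 and 14 FPKM in hybrid cells, and Nefm at 0.312 and 0.366 FPKM, 0.552 and 1.03 FPKM and 1.63 and 1.78 FPKM in the same order. Hybrid cells against EPSCs, Ina and Nefl did not pass the test (limma, adjusted p = 0.257 and 0.301) and Nefm was higher (0.61 ± 0.13, limma, adjusted p = 0.00766).

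**Figure D5:**
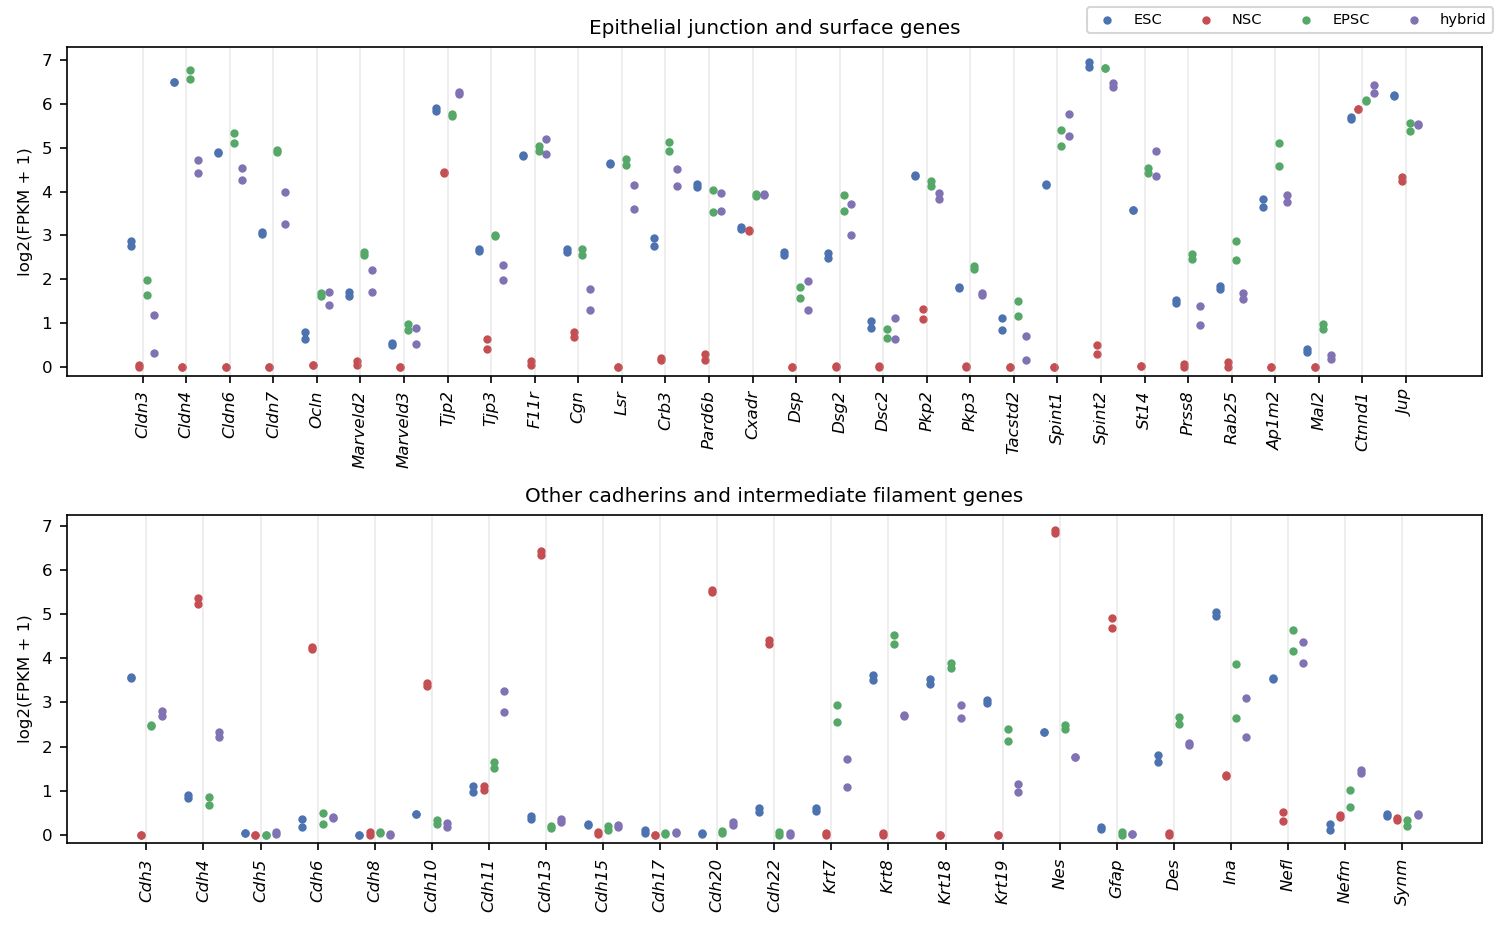
log2(FPKM + 1) of 30 epithelial junction and surface genes (top) and of 12 other cadherins and 11 intermediate filament genes (bottom), with a point for each of the 2 libraries per group. Most junction genes and keratins are at or near 0 in NSCs alone, Cdh4 and Cdh11 are higher in hybrid cells than in EPSCs, and Krt8 is lower.

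Of 14 mesenchymal effector genes, all 14 were tested, and 11 were higher and 2 lower in hybrid cells than in EPSCs (limma, adjusted p under 0.05), against 22.5% and 21.9% of all genes, with a median of 0.98 against 0.00, and 7 were higher by more than 2-fold, against 2.21%. Tgfbr2, a TGF-beta receptor, stood at 8.21 and 6.15 FPKM in hybrid cells, 1.95 and 2.04 FPKM in EPSCs and 6.04 and 6.52 FPKM in NSCs (1.44 ± 0.12, limma, adjusted p = 2.87e-04). Mmp2, a matrix protease, stood at 23.9 and 20.9 FPKM in hybrid cells, 7.78 and 7.78 FPKM in EPSCs and 0.777 and 0.537 FPKM in NSCs (1.41 ± 0.11, limma, adjusted p = 1.93e-04). Most of these genes are made by fibroblasts, whose markers were higher in the same libraries, and the part of those markers was not tested. The list was not uniformly low in EPSCs, where 9 genes were higher and 3 lower than in NSCs, against 45.2% and 41.0% of all genes. The cytokine Spp1 stood at 511 and 563 FPKM in EPSCs against 9.76 and 8.69 FPKM in NSCs, Anxa1 at 21.7 and 21.8 FPKM against 1.23 and 1.17 FPKM, and Tagln at 10.6 and 9.68 FPKM against 0.328 and 0.503 FPKM. In hybrid cells Spp1, at 338 and 353 FPKM, was among the 2 genes lower than in EPSCs (-0.63 ± 0.07, limma, adjusted p = 7.19e-04). Anxa1 and Tagln were among the 11 higher.

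The genes whose profiles over the 8 libraries were most like those of Cdh1, Cdh2 and Esrp1 were found by the Euclidean distance of log2(FPKM + 1), each centred on its mean. The nearest to Cdh1 were Fbxo15 (distance 0.63), Sept1 (0.78), Spint2 (0.80), Esrrb (0.85) and Lin28a (0.95), against a median distance of 8.37 over all genes tested. The nearest to Cdh2 were Pde4b (0.51), Ctnnd2 (0.55), Pea15a (0.55), Zcchc24 (0.56) and Shc3 (0.56), against a median of 6.09. The nearest to Esrp1 were Psma8 (0.33), Asns (0.56), Tead4 (0.70), Fam129a (0.74) and Ap1m2 (0.80), against a median of 4.57. Asns has its lowest level in NSCs at 30.2 FPKM and not near 0, whereas Psma8 averaged 7.72 FPKM in ESCs, 17.9 FPKM in EPSCs and 8.95 FPKM in hybrid cells and was listed at 0 in NSCs, as Esrp1 was.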

How the data were processed

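The authors trimmed the reads of poly-A libraries from a stranded kit with skewer, aligned them to mm10 with STAR 2.7.9a and quantified genes as FPKM with Cuffnorm of Cufflinks 2.2.1 (versions as in the submitters' processing notes). They deposited FPKM per gene and library, with replicates not pooled. The gene annotation, the strand setting and the normalization between libraries are not given in the sources used here, and 0 columns belonged to other samples. Counts were not used here. Depth was derived from the steps of low FPKM values over 2247 single-transcript genes longer than 1500 nucleotides. A value of 0 can be a failed estimate: 8 to 19 genes per group were listed at 0 in one library and above 5 FPKM in the other, but 0 of 10 housekeeping genes were at 0.

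Deposited FPKM values were transformed to log2(FPKM + 1), so fold changes on this scale understate the change of low genes. The 4 groups were fitted together with limma 3.58.1 (lmFit, contrasts.fit, eBayes with trend, R 4.3.3) over the 13239 genes with a mean of at least 1 FPKM in at least 1 group, with 4 residual and 3.25 prior degrees of freedom. Tests were two-sided, and a gene was called at a Benjamini-Hochberg adjusted p under 0.05 over all tested genes. The script was tested on simulated data. The ± beside a log2 difference is its SE, and intervals are 95%. The rule from the methods of the study (FPKM over 3, ratio over 3) was applied to group means, of which the higher had to exceed the level. Python 3.11.15 was used with numpy 2.4.6, pandas 2.3.3, scipy 1.17.1 and matplotlib 3.10.9. Gene positions are from RefSeq on GRCm38, the assembly of mm10.

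All 10 genes are named. From each list all members are counted, and those named are the 3 with the largest difference between EPSCs and NSCs and the 2 with the largest between hybrid cells and EPSCs. For Cdh1, Cdh2 and Esrp1 the 5 nearest profiles are named. Genes, lists and tests were chosen with earlier results of these data known. The fibroblast markers Col1a1, Col1a2, Lum, Col3a1, Dcn, Postn, Pdgfra and Fbn1 and the filament genes Ina, Nefl and Nefm were named after their values were seen. Alternatives were the pseudocount, the filter, 2 other scalings, a fit of the compared groups alone, a replicate block, a 2-fold threshold, other thresholds for the rule of the methods and leaving out each library.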

Additional observations from a re-analysis of the deposited data

How the results depend on the processing

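Of 60 differences of the 10 genes (6 comparisons), 44 kept their direction and their side of the threshold in every alternative run, and of 959 alternative values 39 lost the call, 8 gained it and 5 changed sign. The sign changes were Grhl2 (hybrid cells against EPSCs, -0.39 to 0.15), Snai1 (hybrid cells against EPSCs, -0.09 to 0.25), Zeb1 (EPSCs against ESCs, -0.24 to 0.03), and Cdh2 and Esrp1 (hybrid cells against ESCs, -0.003 to 0.63 and -0.12 to 0.44), each over the fits without single libraries, and none of these 5 was called with all libraries. With a 2-fold change added to the adjusted p, the genes called were 3 for hybrid cells against EPSCs, 2 for EPSCs against ESCs and 1 for hybrid cells against ESCs. The counts without single libraries ranged from 5 to 8 for EPSCs against ESCs and from 2 to 8 for hybrid cells against ESCs. With FPKM over 2 and a ratio over 2, which the study states beside its gene counts, 3, 2 and 1 genes passed in these comparisons. With the thresholds of the methods, 0 to 1 passed for hybrid cells against ESCs without single libraries, the 1 without hybrid replicate 2. The log2 ratio of Cdh1 to Cdh2 moved with the pseudocount (0.1 and 0.5), to 6.22 and 5.89 in ESCs, -9.43 and -7.12 in NSCs and 6.85 and 6.44 in EPSCs. The median position of the 10 genes was 0.863 and 0.855 with these pseudocounts, 0.888 under quantile normalization and 0.838 to 0.877 without single libraries. That of Vim, 0.428, passed the midpoint with libraries scaled to the same FPKM sum (0.578), under quantile normalization (0.707) and without hybrid replicate 1 (0.504). Scaling to the same FPKM sum shifted the median difference over all genes against NSCs from 0.08 to -0.48 for EPSCs, from 0.03 to -0.46 for ESCs and from 0.06 to -0.50 for hybrid cells, and turned the direction of none of the 10 genes. In the fit of EPSCs and ESCs alone Zeb2 was under the filter and has no value. The cause of these changes was not tested.

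The replicate numbers name libraries of the same line and no source pairs them. Deviations of equally numbered libraries correlated at 0.28 for hybrid cells and EPSCs and at -0.11 to 0.07 for the other pairs of groups. With the replicate block, 7, 10, 10, 8, 6 and 10 of the 10 genes were called for hybrid cells against EPSCs, hybrid cells against NSCs, EPSCs against NSCs, EPSCs against ESCs, hybrid cells against ESCs and ESCs against NSCs, the same counts as without it, and over all genes 6060 against 5881 for hybrid cells against EPSCs. A block with the NSC numbers swapped was chosen after seeing the data. For ESCs against NSCs it called 10 of the 10 genes and 11295 of all genes, against 11265 with the unswapped block and 11212 without a block. With 2 libraries a group, no group could be checked for a deviating library, and where a library was left out, the remaining library was assumed to vary like the other groups. Values under about 0.1 FPKM rest on few fragments.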
